A study of Mus musculus with 4 samples.

Results

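The TNF superfamily ligands and receptors were examined in macrophage RNA from the bone marrow and spleen of mice with and without T cell acute lymphoblastic leukaemia (T-ALL). The members were all genes whose symbol in the deposited tables begins with Tnfsf or Tnfrsf followed by a number. They came to 30 of the 17008 genes with a read in any library, 11 ligands and 19 receptors. Ligands of this family are mostly membrane proteins that act as trimers on neighbouring cells, and their receptors signal through TRAF adaptors to NF-κB or, where they carry a death domain, to cell death. In bone marrow and spleen the family is known for B cell survival (BAFF and APRIL), osteoclast formation (RANKL and RANK), T cell costimulation (OX40, 4-1BB, GITR and CD30) and the response of macrophages to TNF.

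Macrophages came from C57BL/6J mice aged 6 to 8 weeks. Normal bone marrow and normal spleen were the groups at day 0. The other groups, labelled leukaemia-associated macrophages, were T-ALL bone marrow and T-ALL spleen at day 21 after a transplant of GFP+ leukaemia cells from leukaemic mice, given without irradiation, and the transplanted mice survived 35 to 40 days. For the number and sex of the mice behind a library, any pooling and the surface markers of the sort, nothing is given in the sources used here. Each group had 1 library. Differences therefore compare single libraries, without replicates and without p-values.

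Libraries held about 8979000 to 9810000 uniquely mapped reads. Levels are counts per 1000000 reads (CPM) on library totals scaled by TMM, and 1 read was worth 0.102 to 0.111 CPM before that scaling. The words higher and lower, as calls, mean a difference of at least 2-fold on log2(CPM + 1) with no less than 10 CPM in the library that is higher. Log2 differences use the same scale and come out too small for genes of low level. Folds are ratios of CPM, and the pair of values after a fold is its exact binomial 95% interval, which covers counting error only.

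All 4 libraries held macrophage transcripts together with those of other cells. Summed over 17 macrophage markers, the level was 3810.1 CPM in normal bone marrow, 10079 in T-ALL bone marrow, 10424 in normal spleen and 5738 in T-ALL spleen. Without Lyz2 and Itgam, which neutrophils also express and which were taken out after their values were seen, the other 15 summed to 512, 3711, 9259.7 and 5418 CPM, with T-ALL bone marrow below T-ALL spleen. The 9 mature neutrophil markers matched summed to 35057, 27865, 533 and 152 CPM in that order, the 12 B cell markers to 465, 506, 3541 and 1761 CPM, and the 16 T cell markers to 268, 1014, 1352 and 4791 CPM. The 8 neutrophil precursor markers summed to 15304, 3844, 91.9 and 108 CPM. All 8 were lower in T-ALL than in normal bone marrow (median log2 difference -1.86). None of these lists had a marker at 0 reads in any library. Sex-linked transcripts also differed between libraries: Ddx3y, on the Y chromosome, had 0 reads in both normal libraries and 93.8 and 57.6 CPM in T-ALL bone marrow and spleen, and Xist was at 861, 0.644, 849 and 416 CPM, so that the T-ALL libraries also differed from each other. In sorted bulk RNA, fewer cells of a type and less RNA per cell cannot be told apart.

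**Figure D1:**
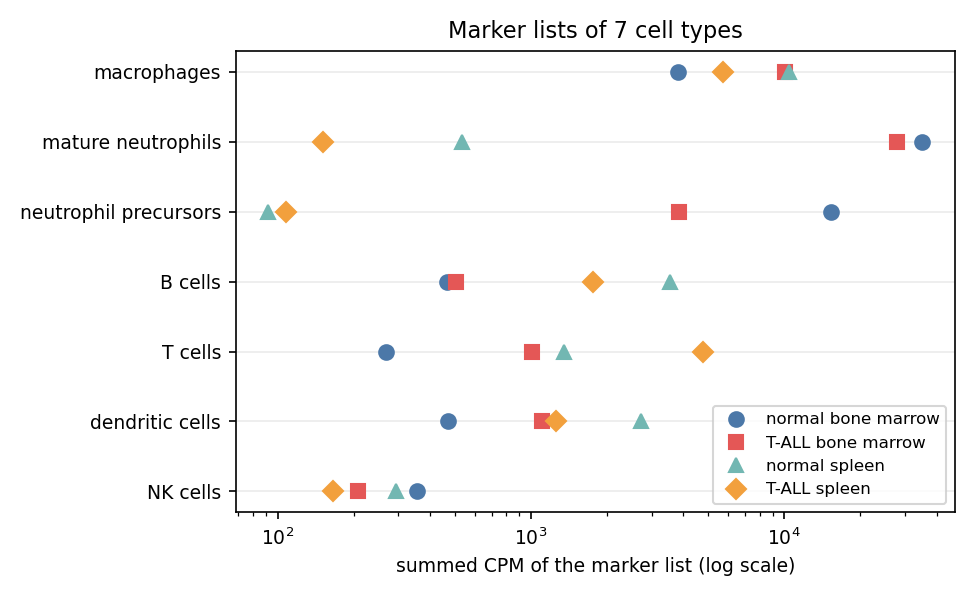
Summed CPM of the marker lists of 7 cell types (x axis, log scale) in each of the 4 libraries (1 point per library, no replicates). The macrophage sum is highest in normal spleen and T-ALL bone marrow, of which the latter is mostly Lyz2 (5494 CPM), neutrophil markers are high in both bone marrow libraries, and T cell markers are highest in T-ALL spleen.

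Receptors made up most of the family's reads. The 19 receptors summed to 580.3 CPM in normal bone marrow, 1045 in T-ALL bone marrow, 1143 in normal spleen and 536 in T-ALL spleen, and the 11 ligands to 87.8, 104, 65.5 and 79.8 CPM. At least 10 CPM in some library was reached by 12 receptors and 5 ligands, and 10 of the receptors and 4 of the ligands were called in at least 1 of the 4 comparisons, beside 40.2% of all genes that reached the minimum in any of them. Per length, in the deposited RPKM (reads per kilobase of gene, scaled to depth), Tnfrsf1a led in normal bone marrow with 63.3 RPKM, ahead of Tnfrsf21 with 40.0 and Tnfrsf1b with 36.9. Tnfrsf1b led the other 3 libraries, with 111 RPKM in both T-ALL bone marrow and normal spleen and 39.6 RPKM in T-ALL spleen. Tnfrsf13c was next in both spleen libraries, with 74.6 RPKM in normal and 29.96 in T-ALL spleen, where Tnfrsf1a stood beside it with 29.9 RPKM, a gap inside the counting error. Among ligands, Tnfsf13b led in both bone marrow libraries with 14.3 and 11.9 RPKM, Tnfsf12 led in normal spleen with 5.52 RPKM and Tnfsf8 in T-ALL spleen with 6.37 RPKM.

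**Figure D2:**
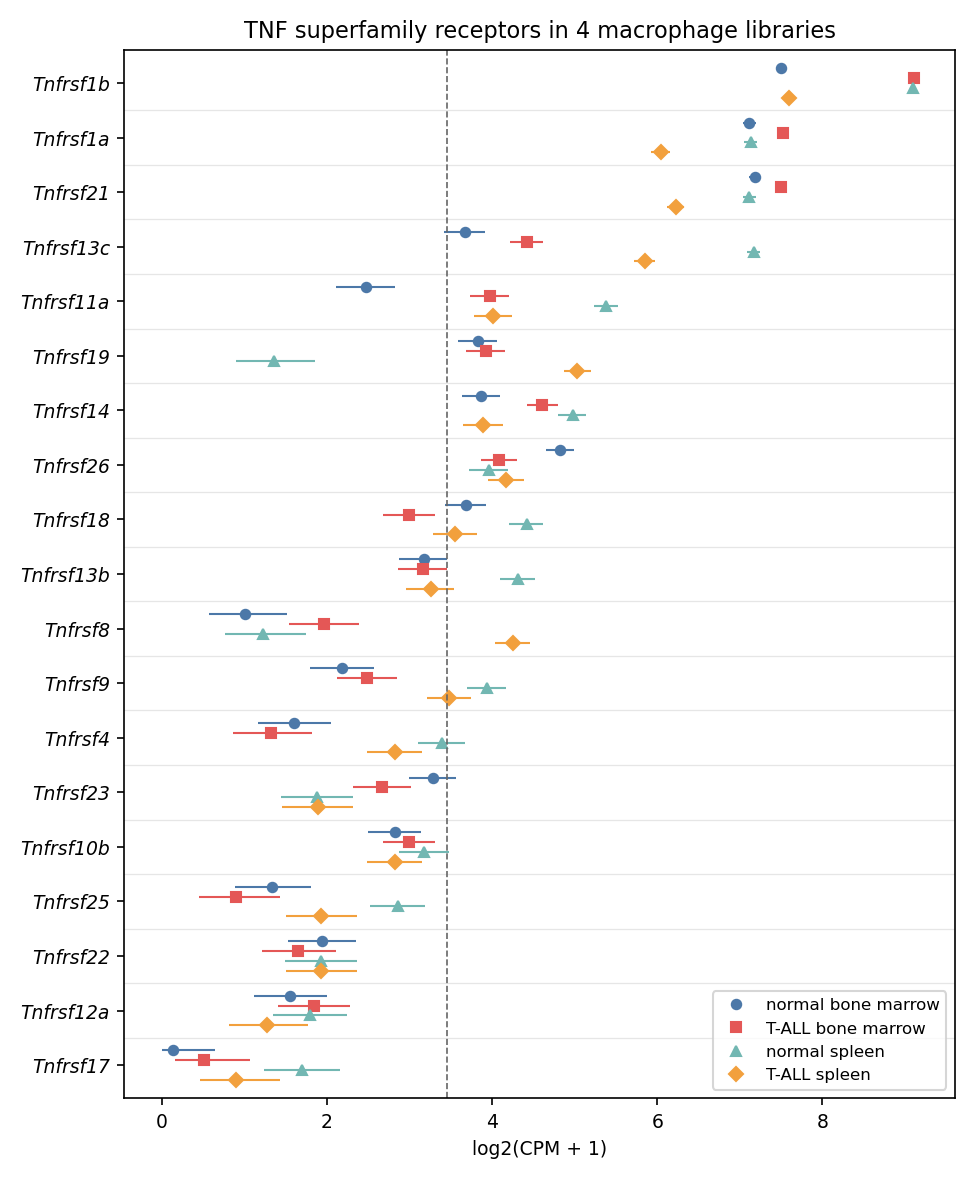
Level of the 19 receptors, log2(CPM + 1), in the 4 libraries. Points are single libraries, horizontal bars are exact Poisson 95% limits of the reads, and the dashed line marks 10 CPM. Tnfrsf1b is high in T-ALL bone marrow and normal spleen, and Tnfrsf8 and Tnfrsf19 are highest in T-ALL spleen.

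In bone marrow, Tnfrsf1b and Tnfrsf11a were higher in T-ALL, and no member was lower. Of the 19 receptors 9 reached the minimum, 2 were higher and 0 lower; of the 11 ligands 3 reached it and 0 were called. Tnfrsf11a reached the minimum only in the T-ALL library, where it was high. Across all genes tested in that comparison, 9.04% were called, 8.01% as higher and 1.03% as lower. The median log2 difference was 0.29 over the 19 receptors and 0.40 over the 11 ligands, beside 0.00 over all 17008 genes. These medians include members with few reads, and that of the ligands is the value of Tnfsf18, with 0 and 3 reads. Over the members that reached the minimum it was 0.41 for receptors and 0.05 for ligands, beside -0.04 for all genes that did. In spleen, 6 receptors were lower and 2 higher in T-ALL, and 1 ligand was higher. There, 12 receptors and 3 ligands reached the minimum, 3 receptors and 2 ligands of them in 1 library only. Of these, Tnfrsf8, Tnfrsf19 and Tnfsf11 were so low in normal spleen that reaching the minimum in T-ALL fixed their call. Of all genes tested in spleen 21.4% were called, 10.3% as higher and 11.0% as lower. The median log2 difference was -0.79 over the receptors and 0.16 over the ligands, beside -0.08 over all genes. Both are values of members under the minimum, Tnfrsf17 and Tnfsf18. Over those that reached it, the median was -0.98 for receptors and 0.79 for ligands, beside -0.08 for all genes that did.

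Tnfrsf1b encodes TNFR2, the TNF receptor without a death domain, which is abundant on myeloid and lymphoid cells. It was at 180.2 CPM in normal bone marrow, 551 in T-ALL bone marrow, 548 in normal spleen and 193 in T-ALL spleen. It thus had a high level in T-ALL bone marrow and normal spleen and a low level in the other libraries. T-ALL was 3.06-fold higher (2.89 to 3.23) in bone marrow and 2.84-fold lower (2.69 to 2.996) in spleen. Of the 17 macrophage markers 15 were higher and 0 lower in T-ALL bone marrow (median log2 difference 2.91, beside 1.61 for Tnfrsf1b), and 1 was higher and 8 lower in T-ALL spleen (median -0.76, beside -1.5). Summed over all 17 markers, T-ALL bone marrow (10079 CPM) was above T-ALL spleen (5738 CPM), as for Tnfrsf1b. Without Lyz2 and Itgam the sum was below, at 3711 against 5418 CPM. Of those 15 markers, 3 were higher and 3 lower in T-ALL spleen than in T-ALL bone marrow. Of the 9 mature neutrophil markers, 3 (Mmp8, Mmp9 and Retnlg) were higher and 0 lower in T-ALL bone marrow (median -0.21). In T-ALL spleen 0 of them were higher and 6 lower (median -1.73). The part of the macrophage and neutrophil markers in the level of Tnfrsf1b was not tested.

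Tnfrsf11a encodes RANK, the receptor that turns macrophage precursors into osteoclasts when RANKL binds it. Its level was 4.57 CPM in normal bone marrow, 14.7 in T-ALL bone marrow, 40.7 in normal spleen and 15.2 in T-ALL spleen. The T-ALL libraries of both organs lay together, between the low normal bone marrow and the high normal spleen. In bone marrow T-ALL was 3.22-fold higher (2.28 to 4.62), and in spleen 2.69-fold lower (2.20 to 3.29). Between the organs, normal spleen was 8.92-fold higher (6.53 to 12.4) than normal bone marrow, whereas the T-ALL libraries were at a ratio of 1.03 (0.809 to 1.31). Dendritic cell markers, which summed to 472, 1106, 2727 and 1256 CPM, had the same order of normal libraries, with 4 of 11 higher in T-ALL bone marrow and 8 lower in T-ALL spleen; their part and that of the macrophage markers were not tested. The higher call in bone marrow was lost when the deposited RPKM replaced CPM (minimum 5 RPKM), where Tnfrsf11a reached 2.90 RPKM in T-ALL.

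Tnfsf11, which encodes its ligand RANKL, was at 0.812, 1.93, 2.68 and 12.3 CPM in normal bone marrow, T-ALL bone marrow, normal spleen and T-ALL spleen. T-ALL spleen was the one library above 10 CPM. It was 4.60-fold higher (2.94 to 7.47) than normal spleen and 6.39-fold higher (3.87 to 11.2) than T-ALL bone marrow. In bone marrow the ratio of T-ALL to normal was 2.38, with an interval from 0.985 to 6.33 on 8 and 18 reads. In spleen, receptor and ligand of the RANK pair were therefore called in opposite directions. RANKL is also made by activated T cells, and 14 of 16 T cell markers were higher in T-ALL spleen (median log2 difference 1.48) and 0 lower; their part in the Tnfsf11 level was not tested.

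The receptors higher in T-ALL spleen were Tnfrsf8 and Tnfrsf19. Tnfrsf8 encodes CD30, which appears on activated lymphocytes and on some lymphoma cells. Its level was 1.01 CPM in normal bone marrow, 2.90 in T-ALL bone marrow, 1.34 in normal spleen and 18.1 in T-ALL spleen. Only T-ALL spleen was above 3 CPM, and there it was 13.5-fold higher (7.51 to 26.6) than in normal spleen. In bone marrow the ratio of T-ALL to normal was 2.86 (1.34 to 6.61), under the minimum level for a call. Its ligand Tnfsf8, CD30 ligand, was at 1.52, 2.68, 7.72 and 14.1 CPM in the same order. Tnfsf8 was 5.25-fold higher (3.40 to 8.40) in T-ALL spleen than in T-ALL bone marrow, and against normal spleen its ratio was 1.82 (1.35 to 2.48), under the threshold. CD30 and its ligand were thus both at their highest in T-ALL spleen, with T cell markers again highest in that library.

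Tnfrsf19 encodes TROY, a receptor best known from the nervous system, skin and epithelial stem cells. It was at 13.2 CPM in normal and 14.2 in T-ALL bone marrow, 1.57 in normal spleen and 31.7 in T-ALL spleen. Normal spleen stood apart with 14 reads, against 130, 132 and 293 reads in the others. T-ALL spleen was 20.3-fold higher (11.9 to 37.5) than normal spleen, the largest T-ALL ratio among called members. The order of the organs turned over with condition: normal spleen was 8.42-fold lower (4.84 to 15.8) than normal bone marrow, and T-ALL spleen 2.24-fold higher (1.82 to 2.77) than T-ALL bone marrow. Markers of T cells, and of T-ALL cells and thymocytes (7 of 12 higher and 0 lower in T-ALL spleen, summing to 816, 1001, 568 and 1667 CPM), moved with Tnfrsf8, Tnfsf8 and Tnfrsf19 in spleen, and so did 11 of 11 cell cycle genes. In T-ALL bone marrow 15 of 16 T cell markers and 6 of 12 T-ALL and thymocyte markers were higher, 0 were lower, and 0 cell cycle genes were called. The Tnfrsf19 ratio of T-ALL to normal there was 1.07 (0.837 to 1.38). The part of these lists was not tested. The first of the organ calls was lost on the deposited RPKM with its minimum of 5, and the second both there and with a pseudocount of 5 CPM.

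**Figure D3:**
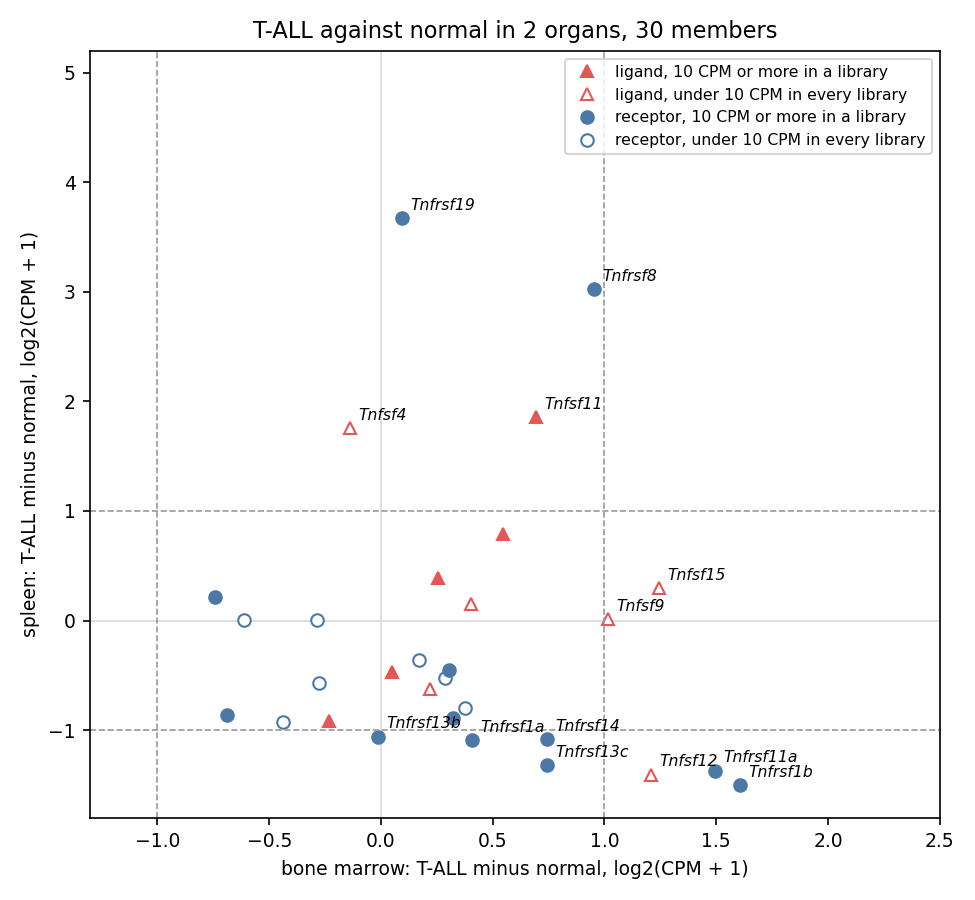
Log2 difference of T-ALL minus normal in bone marrow (x axis) and in spleen (y axis) for the 30 members, with dashed lines at 2-fold. Triangles are ligands, circles receptors, and open symbols are members under 10 CPM in every library. Tnfrsf1b and Tnfrsf11a lie at the lower right, higher in bone marrow and lower in spleen, and Tnfrsf19, Tnfrsf8 and Tnfsf11 lie at the top.

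The 250 bases before the start site of these members are shown, because Tnfrsf1b and Tnfrsf11a were called in both organs and Tnfrsf8 and Tnfsf11 were both higher in T-ALL spleen. They are reference sequences from RefSeq, build GRCm38.p6, at chr4:145246871-145247120 (minus strand), chr1:105780473-105780722 (plus strand), chr4:145315165-145315414 (minus strand) and chr14:78308044-78308293 (minus strand). Tnfrsf19 has 2 start sites in the table and is left out; Tnfrsf10b, Tnfrsf22, Tnfrsf26, Tnfsf4, Tnfsf9 and Tnfsf12 have no entry. Capitals mark every match, on either strand and with overlaps merged, to GGG and CC with any 5 bases between them, a loose form of the κB site bound by NF-κB.
Tnfrsf1b: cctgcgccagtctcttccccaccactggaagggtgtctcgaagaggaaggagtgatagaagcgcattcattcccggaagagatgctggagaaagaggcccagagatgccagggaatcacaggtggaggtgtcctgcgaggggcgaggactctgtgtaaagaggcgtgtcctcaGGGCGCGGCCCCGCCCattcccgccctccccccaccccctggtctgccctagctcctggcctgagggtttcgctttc
Tnfrsf11a: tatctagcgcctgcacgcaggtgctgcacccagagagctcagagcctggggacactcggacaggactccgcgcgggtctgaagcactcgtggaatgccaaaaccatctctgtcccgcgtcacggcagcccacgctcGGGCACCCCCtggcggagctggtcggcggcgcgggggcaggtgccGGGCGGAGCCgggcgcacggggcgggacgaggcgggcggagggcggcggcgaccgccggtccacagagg
Tnfrsf8: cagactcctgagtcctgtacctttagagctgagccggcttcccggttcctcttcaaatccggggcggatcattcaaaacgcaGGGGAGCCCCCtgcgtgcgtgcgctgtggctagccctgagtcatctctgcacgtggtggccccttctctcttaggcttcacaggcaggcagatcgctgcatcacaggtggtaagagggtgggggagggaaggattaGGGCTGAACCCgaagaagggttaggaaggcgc
Tnfsf11: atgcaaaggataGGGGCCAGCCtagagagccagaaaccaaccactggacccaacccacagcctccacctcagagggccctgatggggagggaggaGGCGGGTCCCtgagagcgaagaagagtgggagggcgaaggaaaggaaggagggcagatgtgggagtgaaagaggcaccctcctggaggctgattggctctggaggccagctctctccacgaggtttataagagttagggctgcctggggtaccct
Each of the 4 held a match, at 3 positions in Tnfrsf1b, 2 in Tnfrsf11a, 4 in Tnfrsf8 and 2 in Tnfsf11. Such matches are common: 45.8% of the 32851 promoters of the same length held one, beside 15 of 28 promoters (53.6%) of the 24 members found in the table. A match to TGANTCA, the AP-1 site, stood in the Tnfrsf8 promoter and in none of the other 3 printed, against 6.75% of all promoters and 5 of the 28. Searches for TGGGAA, the RBPJ site, and GAGGAAGT, the PU.1 site, gave no match in the 4 printed. Of the 28, 4 held the former and 1 the latter, beside 21.6% and 2.44% of all promoters. These matches describe letters and not bound sites.

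Of the 4 remaining receptors lower in T-ALL spleen, Tnfrsf1a encodes TNFR1, the TNF receptor with a death domain. It was at 138 CPM in normal bone marrow, 183 in T-ALL bone marrow, 139 in normal spleen and 64.8 in T-ALL spleen. The normal organs lay together, with a ratio of 1.01 (0.937 to 1.09), and T-ALL spleen stood below, 2.15-fold lower (1.95 to 2.37) than normal spleen and 2.82-fold lower (2.57 to 3.10) than T-ALL bone marrow. Tnfrsf21 encodes DR6, another receptor with a death domain, and had nearly the same profile, at 144, 181, 138 and 73.6 CPM. Its ratio of normal to T-ALL spleen was 1.87 (1.70 to 2.06), short of the threshold, and it was 2.45-fold lower (2.24 to 2.69) in T-ALL spleen than in T-ALL bone marrow. Tnfrsf14 encodes HVEM, the receptor of LIGHT, and was at 13.6, 23.4, 30.4 and 13.9 CPM, 2.20-fold lower (1.77 to 2.73) in T-ALL spleen. With a pseudocount of 5 CPM in place of 1, that call was lost.

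The receptors for BAFF and APRIL, like the B cell markers, were at their highest in normal spleen. Tnfrsf13c encodes the BAFF receptor, which B cells need to survive. It was at 11.8 CPM in normal and 20.4 in T-ALL bone marrow, 143 in normal spleen and 56.6 in T-ALL spleen, with both spleen libraries above both bone marrow libraries. T-ALL spleen was 2.52-fold lower (2.28 to 2.80) than normal spleen, and normal spleen 12.1-fold higher (10.02 to 14.8) than normal bone marrow. Tnfrsf13b, which encodes TACI, was at 8.01, 7.94, 18.9 and 8.55 CPM, so that normal spleen alone was raised. It was 2.21-fold lower (1.68 to 2.93) in T-ALL than in normal spleen, a call lost with a pseudocount of 5 CPM. Tnfrsf17, which encodes BCMA, a receptor of plasma cells, had 1, 4, 20 and 8 reads. The 7 plasma cell markers matched summed to 360, 529, 1125 and 1155 CPM in the same order of libraries. Of these markers, 1 was higher and 0 lower in T-ALL spleen. Of the 12 B cell markers, 5 were lower and 0 higher in T-ALL spleen (median log2 difference -0.95), and 10 were higher and 1 lower in normal spleen against normal bone marrow (median 2.61). The part of these marker lists in these receptors was not tested.

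Tnfsf13b, which encodes BAFF, was at 24.3 CPM in normal bone marrow, 20.6 in T-ALL bone marrow, 1.90 in normal spleen and 0.541 in T-ALL spleen, or 240, 192, 17 and 5 reads. Both bone marrow libraries were well above both spleen libraries. The bone marrow level was 12.8-fold higher (7.83 to 22.3) in normal mice and 38.1-fold higher (16.0 to 119) in T-ALL. Between T-ALL and normal, BAFF was not called in either organ. The ratio of T-ALL to normal was 0.846 (0.696 to 1.03) in bone marrow and 0.285 (0.0821 to 0.804) in spleen, where the level was under the minimum for a call. Tnfsf13, which encodes APRIL, was under 10 CPM throughout, at 6.59, 7.83, 5.03 and 2.92 CPM. Its ratio of spleen to bone marrow was 0.763 (0.510 to 1.13) in normal mice, and that of normal to T-ALL spleen was 1.72 (1.05 to 2.89). Ligand and receptor of the BAFF pair were thus highest in different organs, BAFF in bone marrow and its receptor in spleen.

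Tnfsf14, which encodes LIGHT, was at 19.2 and 19.9 CPM in normal and T-ALL bone marrow and at 8.61 and 5.95 CPM in the spleens. Bone marrow was higher by 2.23-fold (1.70 to 2.94) in normal mice, a call lost with a pseudocount of 5 CPM, and by 3.33-fold (2.46 to 4.59) in T-ALL. Neutrophil markers had the same order of organs: all 9 mature neutrophil markers were lower in spleen than in bone marrow in normal mice (median log2 difference -5.93) and in T-ALL mice (-7.45), and their part in Tnfsf13b and Tnfsf14 was not tested. Tnfsf10, which encodes TRAIL, a trigger of cell death, was the one ligand above 10 CPM in every library. It was at 29.3, 35.2, 19.6 and 25.9 CPM and was called in no comparison. Its death receptor Tnfrsf10b varied as little, at 6.09, 6.98, 8.05 and 6.06 CPM.

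**Figure D4:**
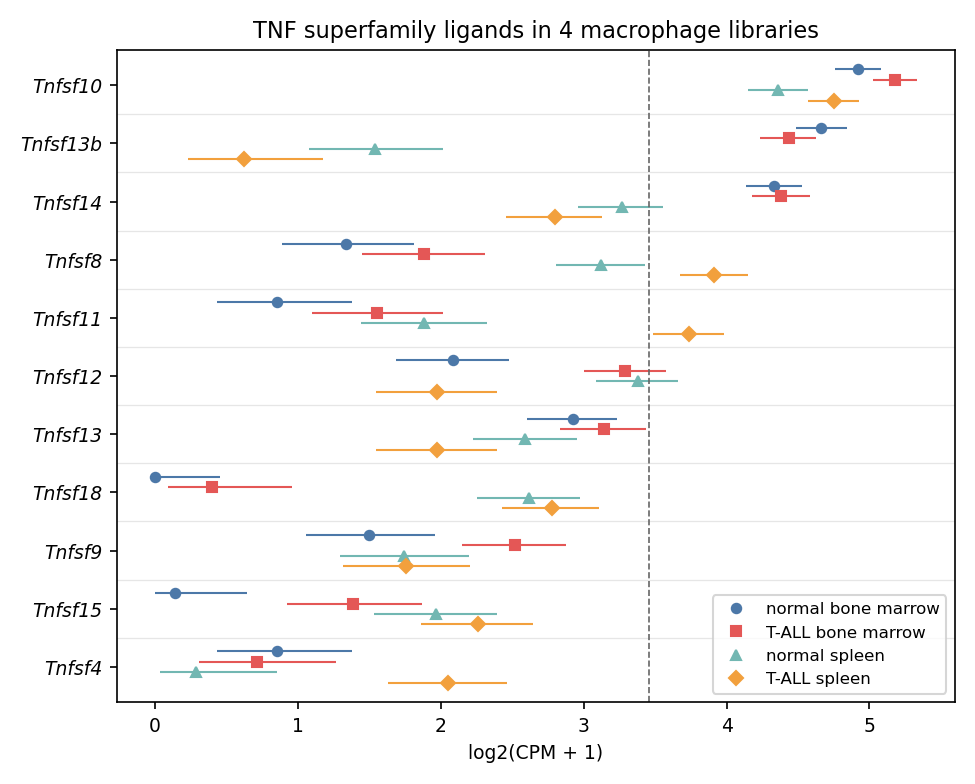
Level of the 11 ligands, log2(CPM + 1), in the 4 libraries. Points are single libraries, horizontal bars are exact Poisson 95% limits of the reads, and the dashed line marks 10 CPM. Tnfsf13b and Tnfsf14 are higher in both bone marrow libraries, and Tnfsf8 and Tnfsf11 are highest in T-ALL spleen.

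Between the organs of normal mice, 6 receptors were higher and 1 lower in spleen, and 2 ligands were lower. In that comparison 30.2% of all genes tested were called, 16.1% as higher and 14.0% as lower, and 11 receptors and 3 ligands reached the minimum, 4 receptors and 2 ligands of them in 1 library only. Those higher were Tnfrsf1b, Tnfrsf9, Tnfrsf11a, Tnfrsf13b, Tnfrsf13c and Tnfrsf14. The calls of Tnfrsf9, Tnfrsf19 and Tnfsf13b were fixed by reaching the minimum, because their level in the lower library was so small. In T-ALL mice, 3 receptors (Tnfrsf8, Tnfrsf13c and Tnfrsf19) and 2 ligands (Tnfsf8 and Tnfsf11) were higher in spleen, beside 5.44% of all genes tested, and 3 receptors (Tnfrsf1a, Tnfrsf1b and Tnfrsf21) and 2 ligands (Tnfsf13b and Tnfsf14) were lower, beside 11.0%. Of all genes tested 16.5% were called there. In this comparison, 11 receptors and 5 ligands reached the minimum, 3 receptors and 4 ligands of them in 1 library only. Of these, Tnfrsf8, Tnfsf8, Tnfsf11 and Tnfsf13b were so low in the lower library that reaching the minimum in the other fixed their call. These comparisons use the same libraries as those of T-ALL against normal and are no independent evidence of them.

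Among the members, the remaining receptors of T cell costimulation had their highest levels in normal spleen, unlike Tnfrsf8 above. Tnfrsf9, which encodes 4-1BB, was at 3.55, 4.61, 14.3 and 10.2 CPM in normal bone marrow, T-ALL bone marrow, normal spleen and T-ALL spleen, and 4.03-fold higher (2.76 to 6.04) in normal spleen than in normal bone marrow. Tnfrsf18, which encodes GITR, was at 11.9, 6.98, 20.4 and 10.7 CPM and passed the threshold in no comparison. Its ratio of normal to T-ALL spleen was 1.90 (1.48 to 2.45). OX40, encoded by Tnfrsf4, was at 2.03, 1.502, 9.51 and 6.06 CPM, and DR3, encoded by Tnfrsf25, at 1.52, 0.859, 6.26 and 2.81 CPM. For these 4 receptors normal spleen was the highest library, and the T cell markers were highest in T-ALL spleen. Of the 10 NK and cytotoxic cell markers 8 were lower and 0 higher in T-ALL spleen, as were 8 and 0 of the 11 dendritic cell markers. The part of these lists in the 4 receptors was not tested.

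Their ligands had few reads. Tnfsf18, GITR ligand, had 0, 3, 46 and 54 reads, so that normal spleen was at least 13.2-fold higher than normal bone marrow by the lower limit of the exact interval. Against a floor of 3 reads in a library the ratio was 16.9. Tnfsf4, OX40 ligand, had 8, 6, 2 and 29 reads, a ratio of 14.0 (3.55 to 121) for T-ALL against normal spleen. Tnfsf15, which encodes TL1A, the ligand of DR3, had 1, 15, 26 and 35 reads, and Tnfsf9, 4-1BB ligand, 18, 44, 21 and 22 reads. The ratio of T-ALL to normal bone marrow was 2.59 (1.46 to 4.75) for Tnfsf9 and 15.9 (2.44 to 668) for Tnfsf15. All 4 ligands stayed under 10 CPM in every library.

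Tnfsf12, which encodes TWEAK, was also under 10 CPM but had the profile of Tnfrsf1b, at 3.25 CPM in normal bone marrow, 8.80 in T-ALL bone marrow, 9.40 in normal spleen and 2.92 in T-ALL spleen. The ratio of T-ALL to normal was 2.71 (1.78 to 4.22) in bone marrow, and that of normal to T-ALL 3.21 (2.06 to 5.16) in spleen. The TWEAK receptor Fn14, encoded by Tnfrsf12a, was at 1.41 to 2.58 CPM. Tnfsf12 and Tnfsf13 lie next to each other on chromosome 11, and reads that run through both cannot be assigned with certainty.

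The mouse receptor cluster on chromosome 7 holds Tnfrsf26, Tnfrsf22 and Tnfrsf23, of which the last pair are decoy receptors for TRAIL. Tnfrsf26 was at 27.4, 16.0, 14.5 and 17.0 CPM, highest in normal bone marrow, and was called in no comparison. Tnfrsf23 was at 8.73, 5.37, 2.68 and 2.71 CPM and Tnfrsf22 at 2.84, 2.15, 2.80 and 2.81 CPM. These genes are similar in sequence, so that their unique read counts are uncertain.

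Some family members carry no family number in their symbols. Tnf itself was at 16.8 CPM in normal bone marrow, 33.5 in T-ALL bone marrow, 32.9 in normal spleen and 61.2 in T-ALL spleen. Its T-ALL to normal ratio was 1.99 (1.64 to 2.41) in bone marrow and 1.86 (1.61 to 2.15) in spleen, under the threshold in both. From normal to T-ALL spleen, Tnf thus rose without a call, while its receptors Tnfrsf1a and Tnfrsf1b fell. Over all 4 libraries, Tnf and Tnfrsf1b were both lowest in normal bone marrow, and Tnfrsf1a was lowest in T-ALL spleen, where Tnf was highest. A link between them was not tested. Of the 7 ligands listed, 2 reached the minimum in bone marrow and 0 were called. In spleen 3 reached it and 2 were lower in T-ALL, the lymphotoxin genes Lta (2.31-fold, 1.74 to 3.08) and Ltb (2.99-fold, 2.78 to 3.21). Of all genes tested, 9.04% were called in bone marrow and 21.4% in spleen. Cd40lg was at most 5.93 CPM, Fasl at most 4.36 and Eda at most 1.52, and Cd70 had 1 read in all.

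Of the 8 such receptors, 5 reached the minimum in bone marrow and 2 were higher in T-ALL, Cd40 and Fas, beside 9.04% of all genes tested called there. Both reached the minimum only through the T-ALL library, and were so low in normal bone marrow that reaching it fixed their call. In spleen 5 reached it, and 1 was higher and 2 lower in T-ALL, beside 21.4% of all genes tested called there. Cd40, the receptor through which T cells license macrophages and B cells, was at 2.13, 12.9, 60.0 and 21.5 CPM, a profile like that of Tnfrsf11a. It was 6.04-fold higher (3.78 to 10.1) in T-ALL bone marrow and 2.78-fold lower (2.36 to 3.29) in T-ALL spleen. Relt was also lower in T-ALL spleen, by 2.19-fold (1.96 to 2.45), and Cd27, a costimulatory receptor of T cells, was higher by 3.23-fold (2.86 to 3.66). Fas, the death receptor, was at 3.15, 10.8, 10.4 and 5.52 CPM, and Ltbr at 56.6, 66.0, 60.4 and 31.9 CPM. Ngfr, Edar and Eda2r stayed at or under 3.13 CPM.

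Downstream, Map3k14 and Relb of the alternative NF-κB pathway were higher in T-ALL bone marrow and lower in T-ALL spleen, the directions of Tnfrsf1b, Tnfrsf11a and Cd40. Nfkb2, of the same pathway, was higher in T-ALL bone marrow but was not called in spleen. It was at 44.6 CPM in normal bone marrow, 97.8 in T-ALL bone marrow, 285 in normal spleen and 176 in T-ALL spleen. A link between these genes and the receptors was not tested. Of 14 NF-κB genes, 4 (28.6%, beside 9.04% of all genes tested) were higher and 0 lower in bone marrow (median log2 difference 0.80): Nfkbiz, Map3k14, Relb and Nfkb2. In spleen 1 was higher and 2 were lower (median -0.58), the same share (21.4%) as over all genes tested. Map3k14 encodes NIK, the kinase that BAFF receptor, RANK and CD40 use to process Nfkb2. It was at 26.7, 71.5, 188 and 67.4 CPM, 2.68-fold higher (2.32 to 3.10) in T-ALL bone marrow and 2.78-fold lower (2.54 to 3.06) in T-ALL spleen. Relb, the partner of the Nfkb2 product, was at 13.2, 29.6, 237 and 82.3 CPM, 2.25-fold higher (1.82 to 2.79) and 2.88-fold lower (2.65 to 3.13). Nfkbiz, an inducible regulator of NF-κB, differed from both: it was higher in T-ALL in bone marrow, by 4.95-fold (4.43 to 5.53), and in spleen, by 2.06-fold (1.92 to 2.21). The macrophage and dendritic cell markers given above move with Map3k14 and Relb, and the T cell markers with Nfkbiz. Of the 12 B cell markers, 2 were higher and 0 lower in T-ALL bone marrow, and 5 were lower and 0 higher in T-ALL spleen. The part of these lists in these genes and in Cd40 was not tested.

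Among 25 adaptors and death effectors, 2 were higher in T-ALL bone marrow, and 2 were higher and 2 lower in T-ALL spleen, with medians of 0.12 and -0.33. These were 8.00% and 16.7% of those that reached the minimum, under the 9.04% and 21.4% over all genes tested. Tnfaip3 encodes A20, an enzyme that restrains NF-κB after TNF. It was at 70.4, 149, 189 and 599 CPM, 2.11-fold higher (1.93 to 2.32) in T-ALL bone marrow and 3.17-fold higher (2.9996 to 3.35) in T-ALL spleen. Birc3, an inhibitor of cell death bound to TRAF2, was 2.48-fold higher (2.20 to 2.79) in T-ALL bone marrow and 2.28-fold lower (2.10 to 2.47) in T-ALL spleen. Traf1, an adaptor of TNFR2 and CD30, was 3.54-fold lower (3.21 to 3.92) in T-ALL spleen, and Traf4 2.89-fold higher (2.44 to 3.43). Among other genes of this list, Traf2 ran from 44.8 to 84.3 CPM, Traf6 from 66.4 to 83.9 CPM and Casp8 from 98.6 to 107 CPM. Traf5 varied more, from 9.23 CPM in normal bone marrow to 56.5 CPM in normal spleen.

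**Figure D5:**
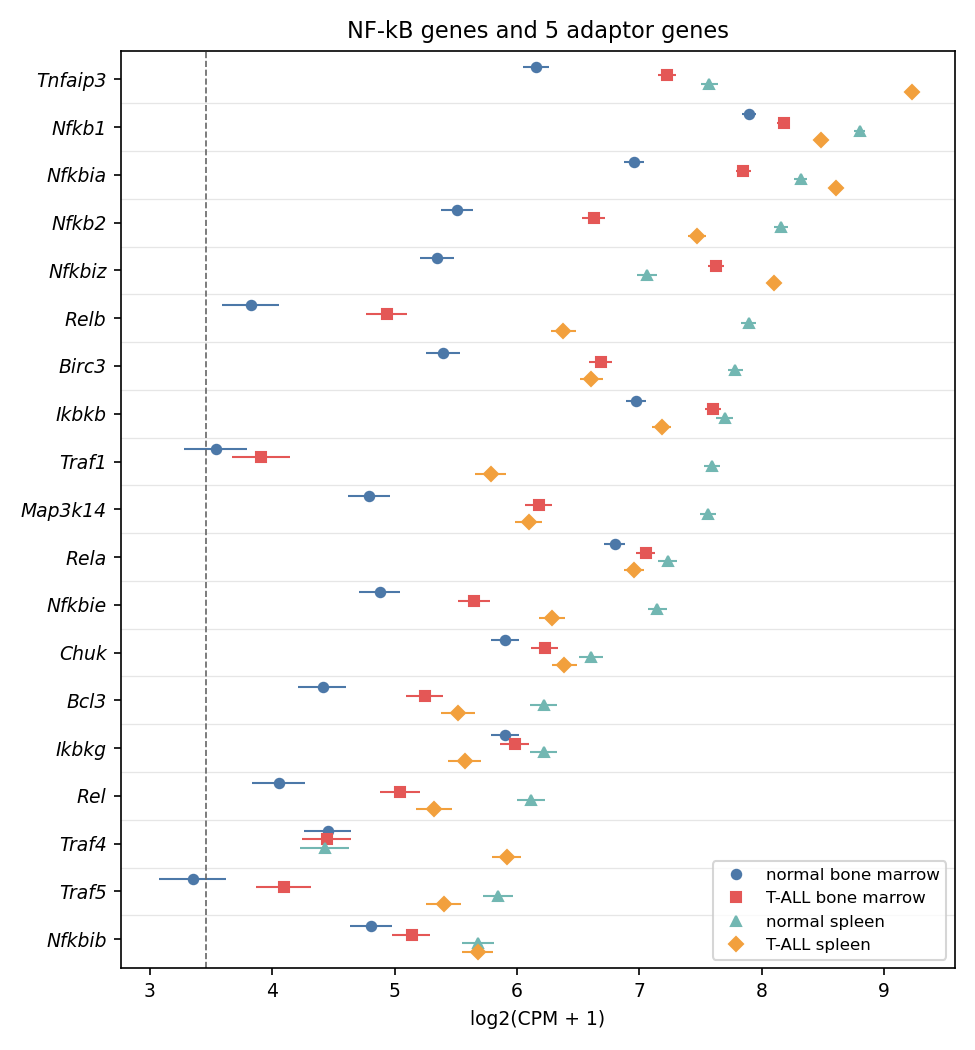
Level, log2(CPM + 1), of the 14 NF-κB genes and of Tnfaip3, Birc3, Traf1, Traf4 and Traf5 in the 4 libraries. Points are single libraries and bars exact Poisson 95% limits, and the dashed line marks 10 CPM. Relb, Nfkb2, Map3k14 and Birc3 are highest in normal spleen, and Tnfaip3 and Nfkbiz in T-ALL spleen.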

How the data were processed

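RNA of sorted macrophages was sequenced in 4 libraries, 1 for each organ and condition. Per the file headers, each deposited table gives the counts of uniquely mapped reads per gene and an RPKM; deposited counts summed to the total in the header, and the deposited RPKM was recomputed from them to within 9.2e-06%. Aligner, counting rule, strand setting and genome build: not given in the sources used here. A gene with no line was set to 0. CPM were computed on totals scaled by TMM (edgeR 4.0.16, R 4.3.3; factors 0.991 to 1.01), and further steps used Python 3.11.15 with scipy 1.17.1, numpy 2.4.6, pandas 2.3.3 and, for figures, matplotlib 3.10.9. Since groups had 1 library, a count model was not used; the size rule has a pseudocount of 1 CPM. Groups came from the sample titles. PCR copies are not separate molecules, and intervals and floors cover counting error only. Members, gene lists and the rule for named genes (all members; other family members; up to 4 genes per pathway list and T-ALL comparison past the size rule) were chosen with earlier results of these data known. Traf2, Traf5, Traf6 and Casp8 were named outside it. Alternatives were 2 other scalings, pseudocounts of 0.1 and 5 CPM, a minimum of 1 CPM or none, and the deposited RPKM. Protein sequences were not used here.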

Additional observations from a re-analysis of the deposited data

Results flagged for a closer look

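Tnfrsf1b and Tnfrsf11a were called in opposite directions in the organs, higher in T-ALL bone marrow and lower in T-ALL spleen. The log2 differences of T-ALL minus normal were 1.61 and -1.5 for Tnfrsf1b and 1.5 and -1.37 for Tnfrsf11a. For 2 members the order of the organs turned over between normal and T-ALL mice: the log2 difference of spleen minus bone marrow was 1.6 in normal and -1.51 in T-ALL mice for Tnfrsf1b, and -2.47 and 1.11 for Tnfrsf19. With 1 library per group, none of these differences between effects was tested. The Tnfrsf1b pairs are the same 4 values read along the other axis.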

How the results depend on the processing

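Of the 30 calls of a member in a comparison, 22 held under all 7 alternatives, 8 were lost under at least 1, and 0 changed direction. Neither other scaling lost a call, and neither moved the median of all genes by as much as 0.1 on the log2 scale. With both, and with a pseudocount of 0.1 CPM, Tnfrsf9 passed 2-fold between the T-ALL organs, with log2 differences of 1.01, 1.04 and 1.12 in place of 0.99. Most differences between settings came from the minimum level. With a minimum of 1 CPM, and the same with none, T-ALL against normal gave 3 higher ligands in bone marrow in place of 0 and, in spleen, 2 higher and 1 lower in place of 1 and 0. Calls over all genes rose too. With a minimum of 1 CPM, 1154 were higher and 172 lower of 12790 tested in bone marrow, in place of 778 and 100 of 9716. In spleen 1222 were higher and 1535 lower of 12691, in place of 1008 and 1080 of 9774. Spleen against bone marrow then gave 5 higher ligands in place of 0, 9 higher receptors in place of 6 and 2 lower receptors in place of 1 in normal mice, and 4 higher and 4 lower ligands in place of 2 and 2 and 5 higher receptors in place of 3 in T-ALL mice. Over all genes with that minimum of 1 CPM, 2210 were higher and 1917 lower of 13002 in normal mice, in place of 1626 and 1413 of 10072. In T-ALL mice 773 were higher and 1687 lower of 12884, in place of 536 and 1086 of 9852. A pseudocount of 5 CPM left 1 lower ligand in normal spleen, beside 1222 lower of 10072 genes tested. On the deposited RPKM, with a minimum of 5, T-ALL bone marrow had 1 higher ligand and 1 higher receptor, T-ALL spleen 1 lower ligand, and normal spleen 1 higher ligand and 0 lower receptors. Over all genes at that setting, 651 of 9168 were higher in T-ALL bone marrow and 834 of 9245 lower in T-ALL spleen. In normal spleen against bone marrow, 1432 were higher and 1269 lower of 9552. No paired analysis was possible because each group has 1 library. Depth limits the members with fewer than about 30 reads in each library, for which intervals span several-fold.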

Other observations

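Several members are neighbours on the chromosome, with no other protein-coding gene between them in the RefSeq table, and their levels can be set side by side. Tnfrsf1b and Tnfrsf8 are next to each other on chromosome 4. Against normal spleen, T-ALL spleen was 2.84-fold lower (2.69 to 2.996) for Tnfrsf1b and 13.5-fold higher (7.51 to 26.6) for Tnfrsf8. Tnfrsf4 and Tnfrsf18, also on chromosome 4, both had normal spleen as the highest library, with 9.51 and 20.4 CPM. Tnfsf15 and Tnfsf8, ligands next to each other on the same chromosome, both had normal bone marrow as the lowest library (0.101 and 1.52 CPM) and T-ALL spleen as the highest (3.79 and 14.1 CPM). Tnfsf4 and Tnfsf18, on chromosome 1, differed: Tnfsf4 had 2 reads in normal and 29 in T-ALL spleen, and Tnfsf18 had 46 and 54. The ratio of normal to T-ALL spleen was 3.21 (2.06 to 5.16) for Tnfsf12 and 1.72 (1.05 to 2.89) for its neighbour Tnfsf13. These pairs were looked at after their values were seen, and no test was made of them.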
